A study of Mus musculus with 6 samples.

Results

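The genes described here build the acetylcholine receptor of the muscle fibre and the machinery that gathers it under the nerve ending. They were chosen by name, with earlier results of these data known: the 5 subunit genes *Chrna1*, *Chrnb1*, *Chrnd*, *Chrng* and *Chrne*, and the 5 clustering and signaling genes *Agrn*, *Lrp4*, *Musk*, *Dok7* and *Rapsn*. They are 10 of the 55421 genes in the count table, and all 10 passed a low-count filter that left 19005 genes to test. RNA sequencing was performed on C2C12 cells, an established mouse myoblast line that fuses into myotubes when serum is lowered, at day 4 of differentiation. The normal group (C2C12-CUG5) carried a GFP plasmid with 5 CTG repeats and the DM1 group (C2C12-CUG200) the same kind of plasmid with 200, as a model of myotonic dystrophy type 1, with 3 libraries in each. Both lines had been selected with G418 after transfection and were differentiated in horse serum with insulin, so the selection and the medium are shared by the groups. The GFP transcript differs in its repeats, and its level in each line was not examined here. Each group is 1 selected cell line, and nothing in the labels or methods says that the 3 libraries came from separate transfections, so p-values measure the spread between these libraries. No nerve was present in these cultures.

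The muscle receptor is a pentamer of 2 α subunits with 1 β, 1 δ and 1 further subunit, which is γ in fetal or uninnervated muscle and ε in adult innervated muscle. The nerve releases agrin, which binds LRP4 on the muscle surface; LRP4 activates the receptor kinase MuSK, MuSK recruits the adaptor DOK7, and the scaffold rapsyn then holds receptors in dense clusters. In cultured myotubes the genes of the fetal receptor are switched on as the cells differentiate, by myogenic factors such as myogenin that bind E-boxes.

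The 5 subunits share a disulfide-closed loop, the Cys-loop, that gives their receptor family its name. The coding bases of this loop are shown because they let the subunits be compared at 1 homologous place, with the 2 cysteine codons in capitals, from the longest protein-coding model of each gene in the GENCODE M21 annotation. The stretch runs from codon 148 to 162 in *Chrna1*, 151 to 165 in *Chrnb1*, 154 to 168 in *Chrnd*, 150 to 164 in *Chrng* and 148 to 162 in *Chrne*.
Chrna1: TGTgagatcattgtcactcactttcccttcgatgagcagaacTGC
Chrnb1: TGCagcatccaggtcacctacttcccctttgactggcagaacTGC
Chrnd: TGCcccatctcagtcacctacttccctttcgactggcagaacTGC
Chrng: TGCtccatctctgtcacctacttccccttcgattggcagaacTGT
Chrne: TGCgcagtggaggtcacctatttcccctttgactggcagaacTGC
Over the whole coding sequence the pairs of subunits were 54.3% (*Chrna1* with *Chrne*) to 63.6% (*Chrnd* with *Chrng*) identical, and no pair shared a run of 30 identical bases. *Chrng* and *Chrne*, the genes that replace each other, were 61.9% identical.

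Library totals ranged from 61707889 to 80957325 counts. They may not be counts of whole fragments: more genes had 4 counts (945 to 1072 per library) than 3 (517 to 601) or 5 (574 to 669), with further peaks at 8 and 12, so 1 fragment may give about 4 counts. Levels of different genes are compared in TPM, which are scaled for gene length as well as for the library, and groups are compared in CPM (counts relative to the TMM-scaled library total). Of the 20 myotube markers, such as *Ckm* and the myosin heavy chains, none was at 0 in all libraries, which fits the labelled stage. Their summed level was 16246 to 19192 TPM in the normal group and 10849 to 12756 TPM in the DM1 group, with no overlap (exact permutation test, two-sided, p = 0.1, the smallest that 3 against 3 allows). DM1 library 3 was the highest DM1 library for all 10 genes described here, for 13 of the 20 myotube markers and for 38.7% of all tested genes.

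*Chrna1* was the most abundant in TPM in every library, with 693 to 757 TPM in the normal group, which ranked it 146 to 156 among the 19005 tested genes. *Chrng* followed with a mean of 283 ± 31.2 TPM (SD, n = 3), then *Chrnb1* with 198 ± 18.5 and *Chrnd* with 138 ± 7.86. *Musk* at 36.9 ± 2.38, *Lrp4* at 34.6 ± 2.82 and *Rapsn* at 31.9 ± 3.65 TPM overlapped in range, though *Musk* was above *Rapsn* in each normal library. *Dok7* at 9.04 ± 2.37 TPM stood above *Agrn* at 6.08 ± 0.666 in each normal library, and *Chrne* came last at 0.879 ± 0.375. In the DM1 group the 4 subunits of the fetal receptor kept the order *Chrna1*, *Chrng*, *Chrnb1*, *Chrnd*, at 523 ± 80.0, 219 ± 59.0, 113 ± 23.0 and 97.6 ± 19.99 TPM. The last 2 overlapped in range though *Chrnb1* was the higher in each library. *Lrp4* at 33.2 ± 8.62 TPM then stood above *Musk* at 18.6 ± 3.66 and *Rapsn* at 17.6 ± 2.25.

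**Figure D1:**
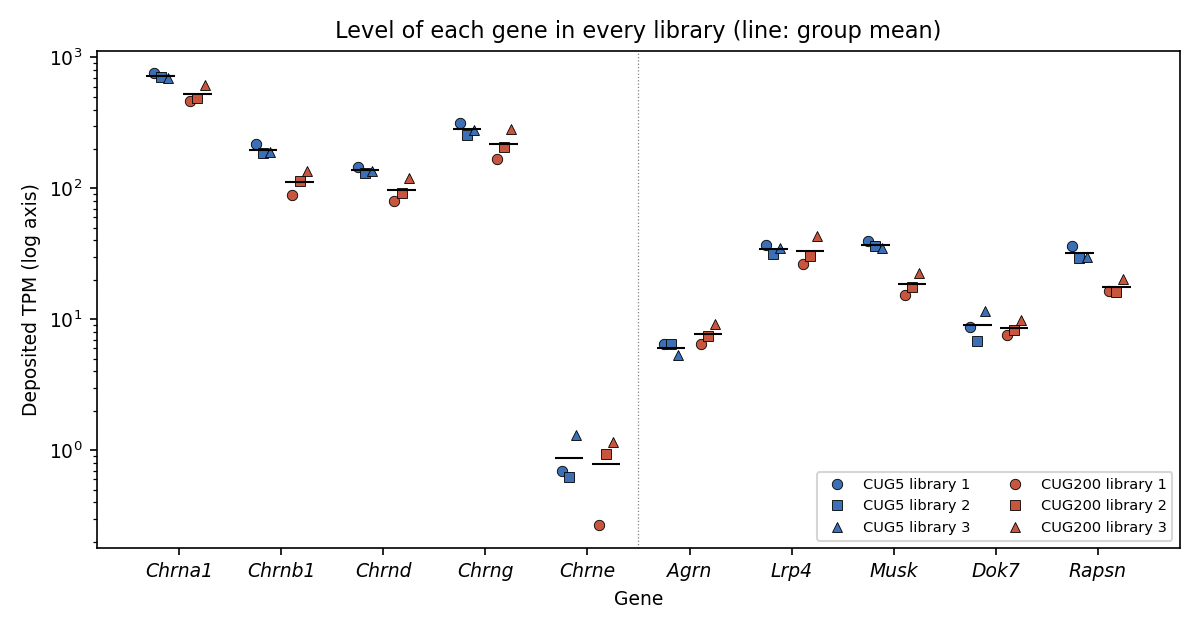
Deposited TPM (log axis) of the 10 genes in each of the 3 CUG5 (blue) and 3 CUG200 (red) libraries, with the group mean as a line and the marker shape giving the library. *Chrna1* lies highest at 463 to 757 TPM and *Chrne* lowest at 0.267 to 1.31 TPM, and DM1 library 3 (red triangle) is the highest red point of every gene.

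Between the groups, 5 of the 10 genes were downregulated in the DM1 group (*Musk*, *Rapsn*, *Chrnb1*, *Chrnd* and *Chrna1*), 1 was upregulated (*Agrn*) and 4 did not pass the test (quasi-likelihood test of edgeR, Benjamini-Hochberg adjusted over all tested genes, adjusted p below 0.05). Over all tested genes 8.73% were called lower and 7.13% higher. Among the 9661 genes with a mean over 10 CPM, a comparison chosen after the values were seen and to which 9 of the 10 genes belong, these shares were 14.1% and 9.39%. None of the 10 genes also passed an absolute log2 fold change over 1, the cutoff the study added, which 2.18% of tested genes did. The 2 groups did not overlap in CPM for 6 of the 10 genes, the same 6 that were called, against 37.2% of all tested genes. The median log2 fold change was -0.41 over the 10 genes and 0.02 over all tested genes.

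**Figure D2:**
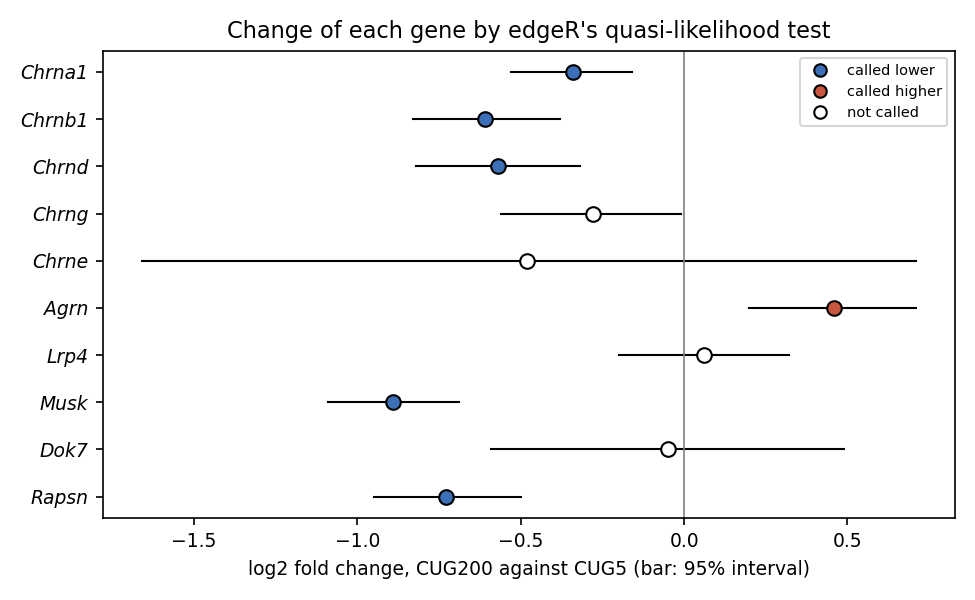
Log2 fold change of each gene in the DM1 against the normal group, with its 95% interval. Filled points passed the test: 5 are lower, from -0.89 (*Musk*) to -0.34 (*Chrna1*), and *Agrn* is higher at 0.46, while the interval of *Chrne* runs from -1.66 to 0.71.

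*Chrna1* (ENSMUSG00000027107, chr2:73563215-73580338, minus strand, GRCm38) encodes the α subunit, which carries most of the acetylcholine binding site. Its level was 1858, 1897 and 1884 CPM in the normal libraries and 1439, 1436 and 1567 CPM in the DM1 libraries. The normal libraries lay close together and all above the DM1 libraries. The log2 fold change was -0.34 (SE 0.0813, adjusted p = 0.0245 by edgeR's quasi-likelihood test), so *Chrna1* fell by 21.2%. This was the smallest of the 5 called decreases. The call was lost without normal library 1, 2 or 3 or DM1 library 2, where the log2 fold change stayed between -0.35 and -0.32 and the adjusted p of the same edgeR test rose to 0.0754 to 0.119. In those fits the number of genes called in the whole table also fell, from 3016 to between 1028 and 1439.

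*Chrnb1* (ENSMUSG00000041189, chr11:69784036-69795943, minus strand) encodes the β subunit, through which rapsyn contacts the receptor. It was at 188, 175 and 187 CPM in the normal libraries and at 110, 116 and 135 CPM in the DM1 libraries. Every DM1 library lay below every normal one, with a log2 fold change of -0.61 (SE 0.0980, adjusted p = 0.00641 by edgeR's quasi-likelihood test), a fall by 34.3%. The call held in each of the 6 fits that left out 1 library, with the log2 fold change between -0.70 and -0.53.

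*Chrnd* (ENSMUSG00000026251, chr1:87190607-87200070, plus strand) encodes the δ subunit. It was at 172, 163 and 175 CPM in the normal libraries and at 99.6, 112 and 133 CPM in the DM1 libraries, again without overlap. On the log2 scale the change was -0.57 (SE 0.111, adjusted p = 0.0124 by edgeR's quasi-likelihood test), a fall by 32.6%. Without normal library 1, normal library 3 or DM1 library 2 the adjusted p of the edgeR test was 0.0520, 0.0622 and 0.0574, with a log2 fold change of -0.56, -0.54 and -0.55. With TPM in place of counts, in limma, the changes of *Chrnd* and *Chrna1* kept their direction at -0.51 and -0.47 but did not pass the test.

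*Chrng* (ENSMUSG00000026253, chr1:87204657-87212694, plus strand) encodes the fetal γ subunit and starts 4586 bases after the end of *Chrnd*. It was at 431, 376 and 417 CPM in the normal libraries and at 288, 327 and 392 CPM in the DM1 libraries. DM1 library 3 reached into the normal range while DM1 libraries 1 and 2 lay below it. The log2 fold change was -0.28, with a 95% interval from -0.56 to -0.01 (adjusted p = 0.154 by edgeR's quasi-likelihood test). Without DM1 library 3 it was -0.41 and passed the same edgeR test (adjusted p = 0.0214). Without DM1 library 1 it was -0.17 and did not pass (adjusted p = 0.336 in the edgeR test). Of the 6 fits that left out 1 library, 1 called *Chrng*.

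*Chrne* (ENSMUSG00000014609, chr11:70614883-70619216, minus strand) encodes the adult ε subunit. Only 33, 36 and 93 counts fell on it in the normal libraries and 23, 48 and 45 in the DM1 libraries, or 5.75 to 23.3 fragments if 4 counts stand for 1. The groups overlapped, with the highest value in normal library 3 and the lowest in DM1 library 1, and the log2 fold change of -0.48 had a 95% interval from -1.66 to 0.71 (adjusted p = 0.599 by edgeR's quasi-likelihood test). Without normal library 3 the estimate was 0.19. *Chrne* overlaps 4930544D05Rik on the opposite strand, which held at most 19 counts, up to 42.2% of the *Chrne* count of the same library. The sources used here do not say whether strand was used, so reads of these 2 genes cannot be told apart.

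The balance of the fetal and the adult subunit was compared per library as the ratio of their TPM. *Chrng* exceeded *Chrne* by 453, 404 and 214 times in the normal libraries and by 625, 222 and 243 times in the DM1 libraries. On the log2 scale the ratio was 8.41 ± 0.58 (SD, n = 3) in the normal and 8.34 ± 0.83 in the DM1 group. The difference of -0.07 was smaller than the spread within either group (exact permutation test, two-sided, p = 1). It lay between -0.55 and 0.20 when each library was left out in turn, and was 0.08 from the counts, 0.05 from the coverage and -0.14 with a pseudocount of 0.1. *Chrne* made up 0.160% to 0.465% of the 2 genes' TPM, so the fetal subunit accounted for nearly all of it in every library of both groups.

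**Figure D3:**
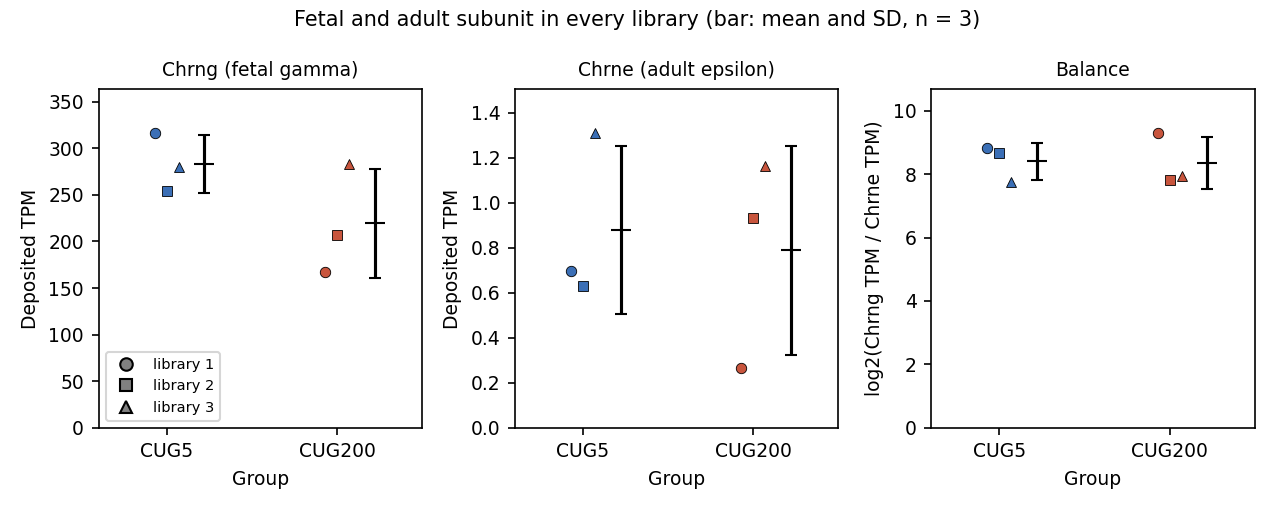
TPM of *Chrng* and of *Chrne*, and the log2 of their ratio, in each library, with the group mean and SD (n = 3) beside the points. *Chrng* reaches 316 TPM and *Chrne* 1.31 TPM, and the log2 ratios of the groups overlap, from 7.74 to 8.82 in the normal and from 7.80 to 9.29 in the DM1 libraries.

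Because the α, β, δ and γ subunits are built into 1 fetal receptor, the ratios between their genes were compared too. This was done for all 6 pairs of *Chrna1*, *Chrnb1*, *Chrnd* and *Chrng*, a comparison chosen after the values were seen. In log2 CPM, the ratio of *Chrna1* to *Chrnb1* was 3.36 ± 0.07 (SD, n = 3) in the normal and 3.63 ± 0.09 in the DM1 group, a difference of 0.27 without overlap between the groups. The ratio of *Chrna1* to *Chrnd* was higher by 0.23, that of *Chrnb1* to *Chrng* lower by 0.32 (difference -0.32) and that of *Chrnd* to *Chrng* lower by 0.29 (difference -0.29), each also without overlap. For these 4 pairs the two-sided exact permutation p was 0.1, the smallest possible, and 0.15 after adjustment over the 6 pairs, so none passed. The other 2 ratios overlapped between the groups, *Chrna1* to *Chrng* with a difference of -0.05 (exact permutation p = 0.7) and *Chrnb1* to *Chrnd* with -0.03 (exact permutation p = 0.5). The sizes depended on the unit: in TPM the 6 differences in the same order were 0.36, 0.05, -0.43, -0.12, -0.07 and -0.31. All 6 differences kept their sign in both units, while the 3 ratios with *Chrnd* moved by over 1.5 times with the unit. Overlap depended on the unit too. In TPM the ratios of *Chrna1* to *Chrnd* and of *Chrnd* to *Chrng* overlapped between the groups, while that of *Chrnb1* to *Chrnd* did not. How many of all gene pairs lie without overlap was not counted, so these numbers have no share beside them. When each library was left out in turn, the CPM difference of *Chrna1* to *Chrng* ran from -0.14 to 0.02, so its sign turned. That of *Chrnb1* to *Chrnd* ran from -0.07 to -0.01, and the 4 pairs without overlap in CPM kept their sign.

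*Agrn* (ENSMUSG00000041936, chr4:156165290-156197488, minus strand) encodes agrin, the ligand of the pathway. Motor neurons supply the strongly clustering splice form and muscle makes forms with little clustering activity, and the gene-level values used here do not separate them. It was at 23.7, 25.6 and 22.3 CPM in the normal libraries and at 28.9, 32.5 and 36.5 CPM in the DM1 libraries, all above the normal ones. The log2 fold change was 0.46 (SE 0.111, adjusted p = 0.0274 by edgeR's quasi-likelihood test), a rise to 1.37 times the normal level. The call was lost without normal library 1, 2 or 3 or DM1 library 2 (log2 fold change 0.42 to 0.51, adjusted p 0.0622 to 0.109 in the edgeR test) and with library totals in place of TMM (0.44, adjusted p = 0.0643). In TPM with limma it was 0.30 (adjusted p = 0.324).

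*Lrp4* (ENSMUSG00000027253, chr2:91457511-91513779, plus strand) encodes the agrin receptor. It was at 151, 142 and 159 CPM in the normal libraries and at 138, 150 and 183 CPM in the DM1 libraries, which overlapped. Its log2 fold change was 0.06, with a 95% interval from -0.20 to 0.32 (adjusted p = 0.769 by edgeR's quasi-likelihood test). Its sign turned in TPM (-0.08) and without DM1 library 3 (-0.06).

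*Musk* (ENSMUSG00000057280, chr4:58285960-58374303, plus strand) encodes the kinase at the centre of the pathway and showed the largest called change of the 10 genes. It was at 73.3, 72.6 and 72.0 CPM in the normal libraries and at 36.2, 38.1 and 43.3 CPM in the DM1 libraries. The highest DM1 library was 39.9% below the lowest normal one. The log2 fold change was -0.89 (SE 0.0887, adjusted p = 0.00156 by edgeR's quasi-likelihood test), a fall by 46.0%. It passed the test in all 15 other fits tried, with a log2 fold change of -0.82 or lower.

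*Dok7* (ENSMUSG00000044716, chr5:35056766-35087839, plus strand) encodes the adaptor that binds and activates MuSK from inside the cell. It was at 12.03, 10.03 and 19.7 CPM in the normal libraries and at 13.9, 11.9 and 14.5 CPM in the DM1 libraries, all within the normal range. Its log2 fold change was -0.05, with a 95% interval from -0.59 to 0.49 (adjusted p = 0.914 by edgeR's quasi-likelihood test). Normal library 3 was the highest, and without it the value was 0.30.

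*Rapsn* (ENSMUSG00000002104, chr2:91035620-91045729, plus strand) encodes rapsyn, the scaffold under the receptor clusters. It was at 31.9, 27.9 and 29.2 CPM in the normal libraries and at 18.4, 16.8 and 18.5 CPM in the DM1 libraries. The groups were far apart relative to their spread, with a log2 fold change of -0.73 (SE 0.0986, adjusted p = 0.00332 by edgeR's quasi-likelihood test), a fall by 39.6%. The call held in all 15 other fits, between -0.85 and -0.67. *Rapsn* overlaps Gm13778 on the opposite strand, which held at most 81 counts, up to 3.97% of the *Rapsn* count of that library.

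The intervals ordered part of the list. That of *Musk* (-1.09 to -0.69) lay wholly below those of *Chrna1* (-0.53 to -0.16), *Chrng*, *Lrp4* and *Dok7* (-0.59 to 0.49), but met those of *Rapsn* (-0.95 to -0.50), *Chrnb1* (-0.83 to -0.38), *Chrnd* (-0.82 to -0.32) and *Chrne*. The interval of *Agrn* (0.20 to 0.71) lay above those of all 5 downregulated genes and of *Chrng*. Beyond the 6 pairs of subunits above, differences between genes in their change were not tested.

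The members were then set beside the muscle markers of the same library, since 15 of the 20 myotube markers were downregulated and none upregulated. The median log2 fold change of the markers was -0.87, below the -0.41 of the 10 genes. *Myh8*, the perinatal myosin heavy chain, fell by 2.90 on the log2 scale, *Myh7* by 2.13, the Z-disc protein gene *Actn2* by 1.22 and the creatine kinase gene *Ckm* by 0.84 (adjusted p from 7.7e-05 to 0.00211 in the edgeR test). In bulk RNA, fewer differentiated cells and less RNA of a gene per cell cannot be told apart. Each gene's TPM was also divided by the summed TPM of the 20 markers, as a description that does not separate the 2.

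Relative to the markers, *Musk* was at 2.06, 2.22 and 2.13 TPM per 1000 marker TPM in the normal libraries and at 1.38, 1.63 and 1.77 in the DM1 libraries, still lower and without overlap. *Rapsn* (log2 difference -0.28) and *Chrnb1* (-0.25) were also lower without overlap. *Agrn* was at 0.338, 0.397 and 0.323 in the normal and at 0.578, 0.689 and 0.727 in the DM1 libraries, a log2 difference of 0.91. *Lrp4* was higher by 0.49, from 1.93 to 2.14 in the normal and from 2.36 to 3.37 in the DM1 libraries. *Chrna1*, *Chrnd*, *Chrng*, *Chrne* and *Dok7* overlapped between the groups. For the 5 genes without overlap the two-sided exact permutation p was 0.1, the smallest possible, and 0.2 after adjustment over the 10 genes, so none passed. Without DM1 library 1, 7 genes in place of 2 were wholly above the normal libraries. The number wholly below stayed at 3 whichever library was left out. How many of all tested genes lie wholly above or below in this ratio was not counted, so these numbers have no share beside them. The result for the members also depended on the unit. The largest parts of the marker sum differed between the units. In the normal group they were *Acta1* and *Mylpf* in TPM (means 4626 and 4132) and *Ttn* and *Acta1* in CPM (4430 and 3938). *Ttn* and *Acta1* each had a log2 fold change of -0.91, while *Mylpf* had -0.16 and was not called. What each marker adds to the result was not tested. With CPM in place of TPM, tried after the data were seen, the summed markers were lower by 0.69 on the log2 scale (difference -0.69) and *Musk* (-0.20) alone lay wholly below the normal libraries. *Rapsn* (-0.03) and *Chrnb1* (0.08) then overlapped, and 5 genes lay wholly above: *Agrn* (1.14), *Lrp4* (0.75), *Dok7* (0.70), *Chrng* (0.40) and *Chrna1* (0.35). The divisor itself was lower by 0.69, so a gene without a change of its own lies higher by about that much. *Lrp4* and *Dok7* had log2 fold changes of 0.06 and -0.05 before the division. As in TPM, the share of all tested genes wholly above was not counted.

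**Figure D4:**
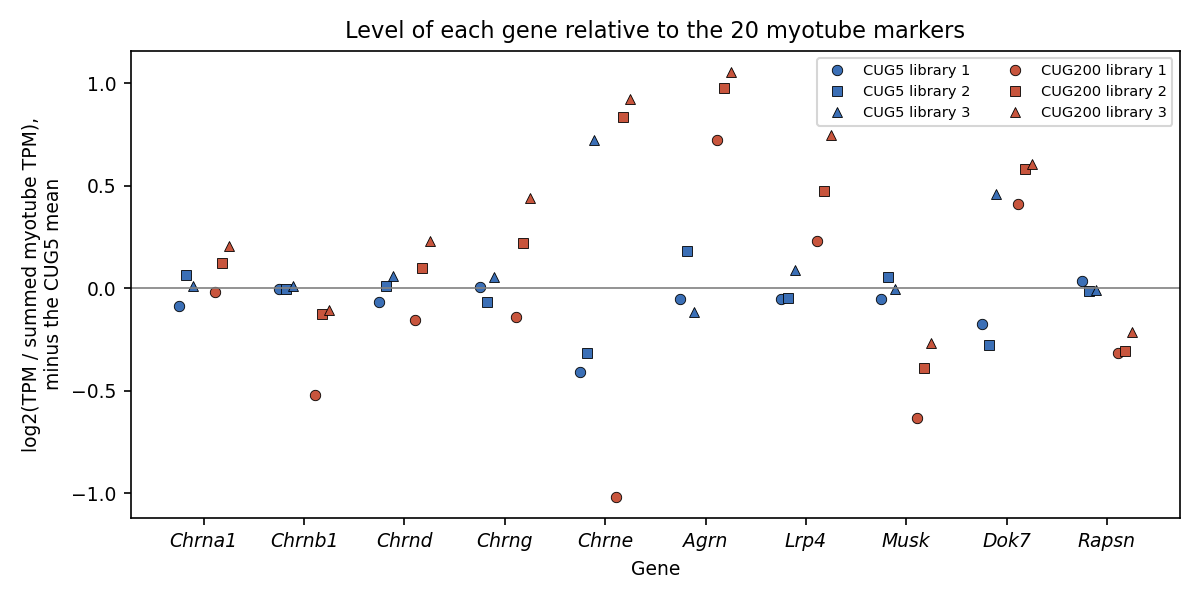
Log2 of each gene's TPM over the summed TPM of 20 myotube markers in the same library, minus the mean of the normal group. That sum was lower in the DM1 group, so a gene without a change of its own lies higher here. In this unit *Musk*, *Rapsn* and *Chrnb1* lie below the normal libraries (mean differences -0.43, -0.28 and -0.25), *Agrn* and *Lrp4* above them (0.91 and 0.49), and the other 5 genes overlap; in CPM *Rapsn* and *Chrnb1* overlap too (-0.03 and 0.08).

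Markers of other cells were read in the same way. Of the 8 neuron markers, the defining cholinergic genes *Chat* and *Slc18a3* and the nuclear marker *Rbfox3* were at 0 in every library. *Tubb3*, by contrast, had a mean of 93.4 TPM in the normal and 77.7 TPM in the DM1 group, and *Nefl* 26.5 and 15.3 TPM. *Tubb3* and *Nefl* made up nearly all of the summed level, which was 110 to 134 TPM in the normal and 86.6 to 105 TPM in the DM1 group. *Nefl* was downregulated and *Tubb3* was not called. Of the 6 Schwann cell markers *Sox10* was at 0 in every library, while *Pmp22*, at 40.9 to 101 TPM, made up nearly all of the sums. The sums were 49.5 to 105 and 42.9 to 97.7 TPM, and none of the 4 tested was called. Of the 8 fibroblast or undifferentiated cell markers, 7 were tested and 2 were upregulated, *Col1a1* (log2 fold change 1.06) and *Cd34* (0.97), and the sums were 871 to 1083 and 1006 to 1302 TPM. The part of such cells in the results above was not tested.

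Promoters of the genes were read from RefSeq (GRCm38.p6), as windows of 250 bases before to 50 after each transcription start. 7 of the 10 genes matched: *Chrna1*, *Chrnb1*, *Chrng*, *Chrne*, *Agrn*, *Musk* and *Dok7*, the last and *Agrn* with 2 windows each. *Chrnd*, *Rapsn* and *Lrp4* are named only. The letters CAGCTG, a form of the E-box CANNTG that myogenic factors prefer and which reads the same on both strands, were searched, as were the letters CCGGAA of the N-box, on both strands. CAGCTG was in the windows of *Chrng*, *Chrna1*, *Musk* and *Chrne*, against 16.3% of 32851 windows of this length. *Chrng* and *Chrna1* held it 2 times, as did 1.90% of windows, counting those with more. CCGGAA was in the *Chrne* window alone among these genes and in 14.9% of all windows. The general CANNTG was in 72.3% of windows. The matches are shown with their neighbouring bases because members with and without them can be set beside the changes, with the matched letters in capitals and each read in the direction of transcription. They lie at chr1:87205644-87205696 (plus strand, -167 to -115 from the start) for *Chrng*, at chr2:73580365-73580442 (minus strand, -104 to -27) for *Chrna1* and at chr4:58285882-58285911 (plus strand, -80 to -51) for *Musk*. Those of *Chrne* lie at chr11:70619315-70619344 (E-box, minus strand, -150 to -121) and chr11:70619253-70619282 (N-box, minus strand, -88 to -59).
Chrng: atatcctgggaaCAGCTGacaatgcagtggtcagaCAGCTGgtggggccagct
Chrna1: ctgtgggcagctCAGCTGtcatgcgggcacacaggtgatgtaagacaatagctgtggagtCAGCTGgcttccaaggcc
Musk: gtgagttctcccCAGCTGgccacgtccatc
Chrne E-box: cacaggatggggCAGCTGcctcccccaccc
Chrne N-box: cccaaacctagcCCGGAActaacaccctcc
The *Chrng* window lies inside the gene's span in the deposited tables, which begins further upstream. Of the genes with CAGCTG, *Musk* had the largest called fall and *Chrna1* the smallest, and 2 were without a call (*Chrng* and *Chrne*). Of the genes without it, *Chrnb1* fell, *Agrn* rose and *Dok7* was not called. The *Chrnb1* window held 3 matches of CANNTG, as many as *Chrng*, *Chrna1* and *Musk*. All 7 genes had at least 1 CANNTG. A match is a description of the letters and says nothing of binding.

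Other genes of the pathway were taken from 6 lists of 102 genes, of which 87 were tested. In all, 26 were downregulated and 7 upregulated, with a median log2 fold change of -0.12, beside the 8.73% and 7.13% called over all tested genes. Both the test and the study's cutoff for size were passed by 3 of them, *Kcnj2*, *Nrg1* and *Mef2c*, the last named after its values were seen. *Mef2c* was close to both cutoffs (log2 fold change -1.01, adjusted p = 0.0471 in the edgeR test). Its counts were 4912, 4146 and 8290 in normal libraries 1, 2 and 3, while its TPM there were 34.0, 42.9 and 45.5.

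Of 14 other nicotinic subunits and chaperones only 3 were tested. Among the others, 7 subunit genes (*Chrna3*, *Chrna4*, *Chrna5*, *Chrna6*, *Chrna7*, *Chrna9* and *Chrnb3*) had 0 counts in every library, and *Chrna10*, *Chrnb4*, *Ric3* and *Tmem35a* had at most 16 counts in any library and were removed by the filter. The 1 gene called was *Clptm1*, lower by -0.54 on the log2 scale, whose product is known for handling GABA receptors. *Chrnb2* (0.27) and *Chrna2* (-1.05) were not called.

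Of the 27 adaptors and kinases downstream of MuSK, 8 were downregulated and 2 upregulated. *Dok1*, a relative of *Dok7* that acts in many kinase pathways, rose by 0.53 on the log2 scale and the kinase *Tnk2* by 0.57. *Hsp90ab1*, a chaperone, fell by 0.59, *Dnaja3*, a MuSK-binding chaperone, by 0.55 and *Ctnnb1*, encoding β-catenin, by 0.51. Adjusted p ranged from 0.00853 to 0.0305 over these 5 genes in the edgeR test.

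Of 18 tested genes of the synaptic basal lamina and cholinesterase, 5 were downregulated and 2 upregulated. Of the 6 laminin chain genes among them, *Lama4* (0.76) and *Lama5* (0.35) rose and *Lama2* (-0.61) and *Lamb1* (-0.49) fell, while *Lamb2* (0.02) and *Lamc1* (0.06) were not called. The collagen IV gene *Col4a1* (-0.65) and the linker gene *Nid2* (-0.61) also fell. *Ache*, which encodes acetylcholinesterase, had a log2 fold change of 0.57 and *Colq*, its collagen tail, one of 0.14, and neither passed the edgeR test (adjusted p = 0.459 and 0.684).

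Of 16 postsynaptic scaffold genes, 4 were downregulated and 1 upregulated. The syntrophin gene *Sntb1* fell by 0.99 on the log2 scale, *Dag1*, which encodes dystroglycan, by 0.52, *Des* (desmin) by 0.43 and *Prkar1a*, a protein kinase A subunit held at the synapse, by 0.34. *Kcnj2*, an inward rectifier potassium channel gene, rose by 1.51 (adjusted p = 0.000209 in the edgeR test), the largest change among the 87 genes. *Utrn*, encoding utrophin, had -0.25 and was not called.

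Of 18 tested genes of synaptic and activity-dependent transcription, 7 were downregulated and 1 upregulated. *Myog*, encoding myogenin, fell by 0.65 on the log2 scale, *Etv5*, an ETS factor active in subsynaptic nuclei, by 0.80, *Erbb3*, a receptor for neuregulin, by 0.69 and *Sik1*, a kinase that acts on class II histone deacetylases, by 0.53. *Nrg1*, encoding neuregulin 1, rose by 1.34 (adjusted p = 0.00241 in the edgeR test). Of 5 glycosylation enzymes mutated in congenital myasthenic syndromes, *Alg14* rose by 0.49 and *Gfpt1* fell by 0.33.

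**Figure D5:**
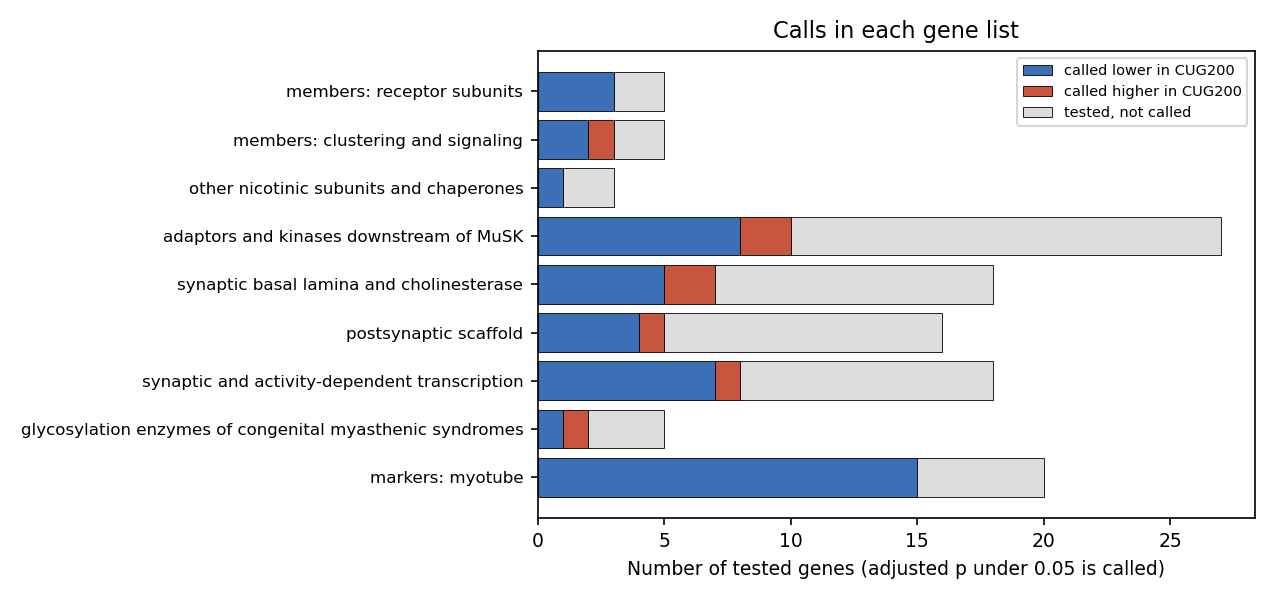
Number of tested genes called lower (blue), called higher (red) or not called (grey) in each list. Receptor subunits have 3 of 5 lower and clustering genes 2 of 5 lower with 1 higher, and the myotube markers at the bottom have 15 of 20 lower.

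The genes whose level over the 6 libraries most resembled the mean of *Chrna1*, *Chrnb1* and *Chrnd* were *Pik3r4*, *Fads2*, *Utp20*, *Luzp1* and *Slco3a1*. Their Pearson r was at least 0.999 over 6 points that fall into the 2 groups, and it is given as a description. Such values were common, with r over 0.95 in 824 of the 9172 genes compared. All 5 were lower in the DM1 group, by -0.70 (*Slco3a1*) to -0.37 (*Luzp1*) on the log2 scale.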

How the data were processed

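RNA from 6 C2C12 libraries (3 CUG5, 3 CUG200, differentiation day 4) was sequenced, trimmed with Trim Galore, aligned to GRCm38 with HISAT2 and quantified with StringTie by the authors (versions not given in the sources used here). The deposited count table holds whole numbers, 61707889 to 80957325 per library, which appear to derive from coverage. Genes with few counts peak at 4, 8 and 12 counts, so 1 fragment may give about 4 counts, or 15426972 to 20239331 fragments per library. The authors also deposited TPM, FPKM and coverage per gene and library. TPM were used for comparisons between genes, coverage (and counts) as an alternative for the *Chrng* to *Chrne* ratio, and FPKM entered no comparison.

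Counts were filtered (filterByExpr), scaled by TMM (factors 0.940 to 1.05) and tested with edgeR 4.0.16 (robust quasi-likelihood, no covariate), called at a Benjamini-Hochberg adjusted p below 0.05 over 19005 genes. TPM ratios were compared by exact two-sided permutation tests. The script was tested on simulated data. Alternatives were DESeq2 1.42.0 and its size factors, library totals, 2 filters, counts divided by 4, limma 3.58.1 on log2(TPM + 1) and log2(TPM + 0.1), a replicate block, the study's cutoffs and leaving out each library. The ratios between subunit genes were tried in both CPM and TPM after the data were seen. The ratios to the myotube markers were planned in TPM, and only their CPM form was tried after the data were seen.

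Named were all 10 members and, in each list, up to 4 called genes per direction with the smallest p. Also named were the 5 genes most like the mean of *Chrna1*, *Chrnb1* and *Chrnd* among 9172 tested genes over 10 CPM. These 9172 genes are fewer than the 9661 with a mean over 10 CPM that were used for the shares called. Members and lists were chosen with earlier results of these data known. Other genes, such as *Ache*, *Colq*, *Utrn* and uncalled list members, were named for their known role after their values were seen. Markers that make up much of a sum, such as *Tubb3*, *Pmp22* and *Ttn*, were also named after their values were seen. One gene that the rule names is not reported here.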

Additional observations from a re-analysis of the deposited data

How the results depend on the processing

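The falls of *Musk*, *Rapsn* and *Chrnb1* passed the test in all 15 alternative fits, leave-one-out included. The count of downregulated members, 5, was 3 with limma on TPM at both pseudocounts and 0 with the study's cutoffs, and ranged from 3 to 6 when each library was left out. That of upregulated members, 1, was 0 with library totals alone, with limma at both pseudocounts and with the study's cutoffs, and 0 to 1 without single libraries. Of the associated genes, 26 lower and 7 higher, limma on log2(TPM + 1) called 12 and 2, limma on log2(TPM + 0.1) called 14 and 2, and the study's cutoffs left 1 and 2. Without single libraries 13 to 28 were lower and 4 to 10 higher. The number of members wholly higher relative to the myotube markers, 2, ranged from 2 to 7 without single libraries and was 5 with CPM in place of TPM, where 1 in place of 3 was wholly lower. The marker sum itself was lower in the DM1 group, and the share of all tested genes wholly higher or lower in this ratio was not counted. Signs turned for 3 members that were never called: *Lrp4* to -0.08 and -0.09 with limma at the larger and smaller pseudocount and -0.06 to 0.16 without single libraries, *Dok7* to 0.005 with the replicate block and -0.24 to 0.30 without single libraries, and *Chrne* -0.80 to 0.19 without single libraries. The log2 ratio of *Chrng* to *Chrne* differed by -0.07 between the groups, a sign that also turned, to 0.08 with counts and 0.05 with coverage, all within the spread between libraries. Genes called in the whole table numbered 3016, against 1025 and 1050 with limma and 1028 to 3789 without single libraries. The cause was not tested. Same-numbered libraries deviated together by a correlation of 0.0222 to 0.0675. Libraries with different numbers were not compared and the labels name no pairing, so whether the numbers pair the samples stays unknown. The replicate block kept 5 members lower and 1 higher and called 2823 genes in all. Depth was lowest for *Chrne*, with at most 93 counts in a library.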
